A study of Felis catus with 25 samples.

Results

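Cat (Felis catus) fibroblasts from the cornea, grown in culture and given transforming growth factor beta 1 (TGFb1) for 2 days, were compared with untreated fibroblasts of day 0. The comparison takes the 10 libraries titled D2_TGFb and D0_FB, 5 in each group, out of 25 libraries in 5 groups in the whole series. All genes that passed a filter on counts were compared. The TGFb group received TGFb1 at 1 ng/ml for 2 days, the step the study used to turn fibroblasts into myofibroblasts. The FB group received no TGFb1 and was harvested on day 0 after a period of quiescence. Cells of both groups were grown in dishes coated with collagen. Polyadenylated RNA was sequenced. The remaining groups of the series, which received drugs until day 5, enter only an alternative fit. No library of day 2 without TGFb1 was analysed here, and in every value below TGFb1 and 2 further days in culture cannot be told apart. The series calls its replicates independent, but the labels do not say whether they came from separate cultures, animals or donors, and each p-value therefore reflects the variation among these libraries alone, which may be technical.

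The corneal stroma is kept transparent by keratocytes, quiescent cells that sit between regular sheets of thin collagen fibrils. After injury they become fibroblasts, and under TGF-beta some become myofibroblasts, contractile cells that carry smooth muscle actin and lay down the disordered matrix of a scar. TGF-beta is secreted in a latent form, bound to matrix through the LTBP proteins, and is freed by integrins or thrombospondin. The active ligand binds TGFBR2, which recruits TGFBR1, and the receptor pair activates SMAD2 and SMAD3, which enter the nucleus with SMAD4. The related bone morphogenetic proteins (BMPs) act through SMAD1, SMAD5 and SMAD9. Gene roles given below are background from work on the human and mouse genes of the same names.

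The libraries held 17.6 to 24 M counts in TGFb and 17.5 to 24.2 M counts in FB, and their log2 levels correlated within each group at 0.993 to 0.996 across genes. Counts were more concentrated in TGFb, where 22.3% ± 1.2 belonged to the 10 highest genes, against 15.3% ± 0.601 in FB (SD, n = 5 each). Of the cell type markers, fibroblast genes were present in every library, among them COL1A1, COL1A2, COL3A1, LUM (lumican), DCN (decorin) and PDGFRA, whereas THY1 had 8 counts in all TGFb libraries together and 44 in all FB libraries. Of the other planned markers of keratocytes and fibroblasts, VIM was not among the genes counted and KERA is not reported here. Of the corneal epithelium markers 9 of 15 were in the files and 2 passed the filter on counts, 3 had no count in any of the 10 libraries, and the summed level was 19.6 to 22.9 CPM in TGFb and 8.57 to 10.5 CPM in FB. Of the immune cell markers 3 of 15 passed and 8 were at 0 throughout, with a summed level of 18.4 to 25.5 CPM in TGFb and 11.8 to 14.7 CPM in FB. Of the vascular markers 4 of 14 passed and 2 were at 0, with a summed level of 88.8 to 108 CPM in TGFb and 139 to 149.8 CPM in FB. Of the corneal endothelium markers, many of which other cells also express, 9 of 10 passed and 5 rose, and their summed level was 4585 to 4848 CPM in TGFb and 3143 to 3348 CPM in FB. Of the markers of melanocytes, Schwann cells and nerve, 4 of 13 passed and 3 were at 0, with a summed level of 122 to 129.6 CPM in TGFb and 119.7 to 128 CPM in FB. Whether other cells took part in the changes below was not tested.

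After 2 days with TGFb1 the cells held more RNA of contractile, matrix and sterol synthesis genes and less RNA of genes for DNA replication, mitosis and ribosome assembly. Of 9854 genes tested, 3422 rose (34.7%) and 3665 fell (37.2%), so that 71.9% changed, and every count of list members below has to be read against these shares. At least 2-fold changes were fewer, with 545 genes higher (5.53%) and 644 lower (6.54%), 12.1% in all. The groups did not overlap, so that all 5 TGFb libraries lay on one side of all 5 FB libraries, for 2698 genes higher in TGFb (27.4%) and 2898 genes lower (29.4%), 56.8% together. The median log2 fold change of all tested genes was -0.0192, and the middle 50% of them lay between -0.343 and 0.307. A gene is said to rise or fall where edgeR's quasi-likelihood test gave an adjusted p under 0.05 (Benjamini-Hochberg over all tested genes). Levels are CPM, counts per 1 M counts of the scaled library, given as mean ± SD over 5 libraries, and changes are log2 fold changes of TGFb over FB ± SE. In a fit of all 25 libraries, whose shared spread includes 1 library that stands apart from its group, 4089 genes changed, and 34 of 236 genes named here no longer passed. Scaling to library totals alone in place of TMM, the main scaling, lowers every change: 1390 genes were then higher and 6685 lower, and the median moved to -0.393. Counts given in brackets below as up or down with library totals are the calls under that scaling. In bulk RNA, fewer cells with a transcript and less of it per cell cannot be told apart.

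**Figure D1:**
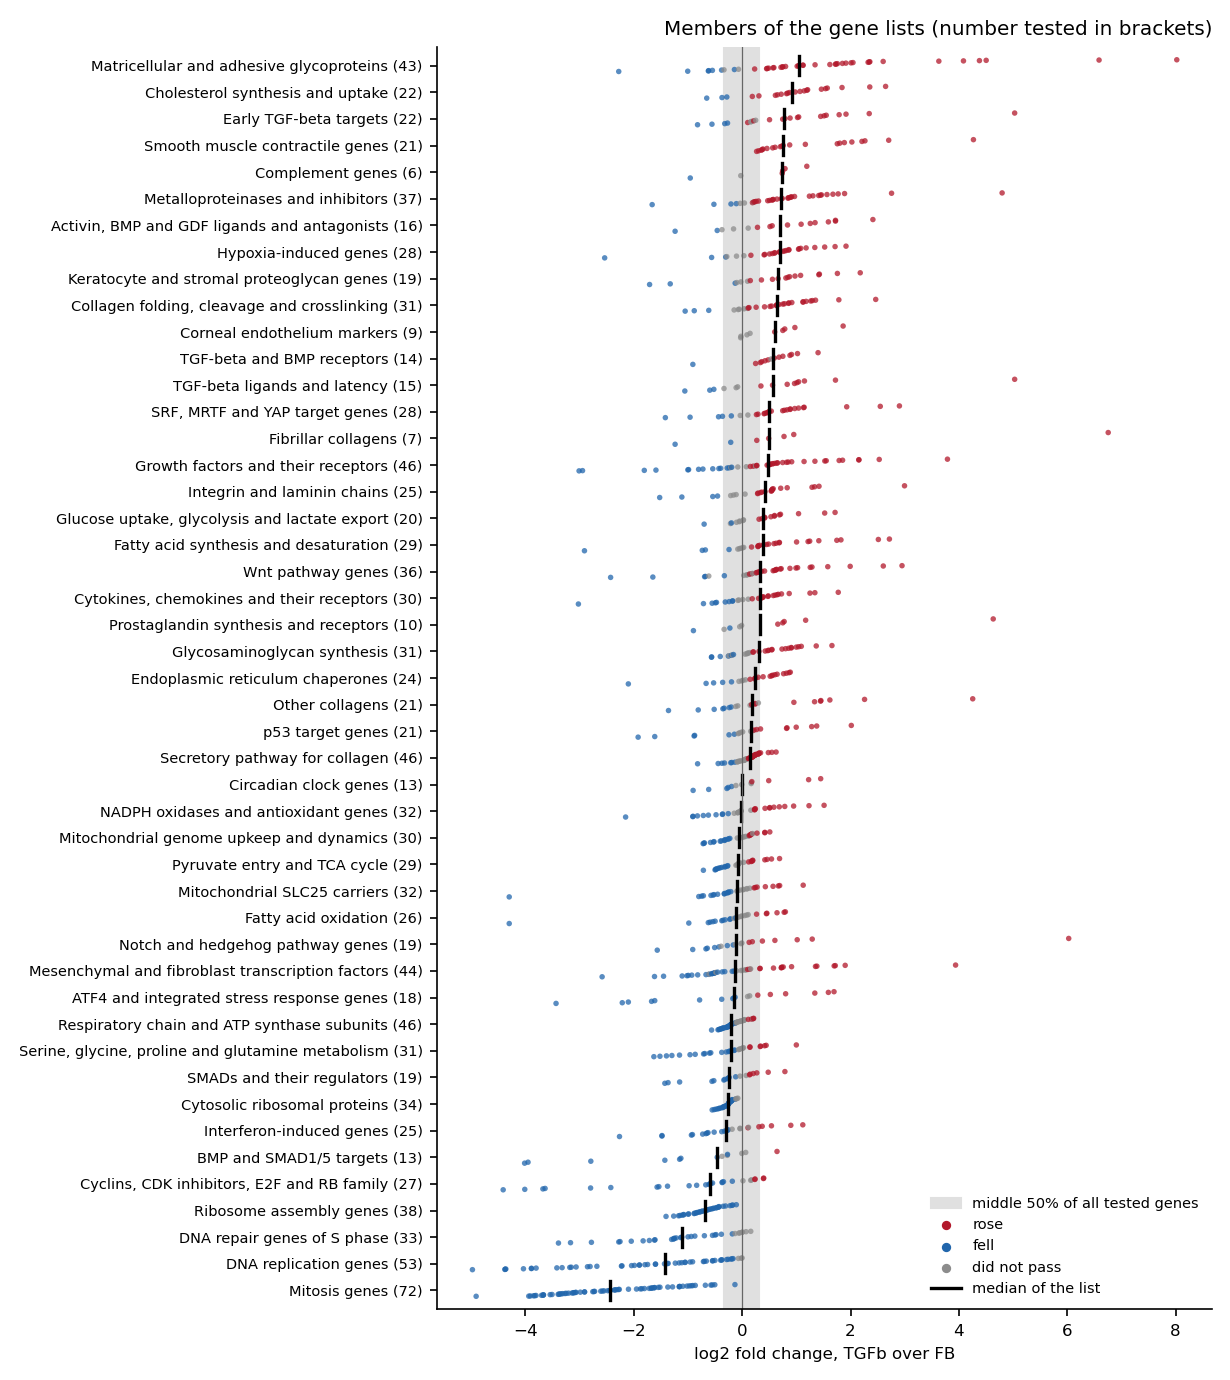
Each point is 1 tested gene of a list, placed by its log2 fold change of TGFb over FB; black lines are medians of the lists, and the grey band spans the middle 50% of all 9854 tested genes. With TMM scaling the medians run from -2.44 for mitosis genes to 1.04 for matricellular and adhesive glycoproteins; library totals alone would shift every point down.

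The smooth muscle contractile genes were higher in TGFb in all members tested with TMM scaling and in most with library totals alone. ACTA2, the smooth muscle actin that defines the myofibroblast, had 7942, 7707, 7295, 7922 and 7239 CPM in TGFb, against 1785, 1526, 1762, 1566 and 1594 CPM in FB. Every TGFb library lay far above every FB library, and the mean was 7621 ± 336 CPM in TGFb and 1646 ± 119 CPM in FB, which is 2.21 ± 0.058 on the log2 scale (edgeR BH-adjusted p = 2.55e-20). Reads may be shared between ACTA2, ACTG2, ACTC1 and ACTA1, whose coding sequences are nearly identical, so the level of each of these actins is uncertain. Of 27 contractile genes listed, 24 were in the files and 21 were tested, and 21 rose and 0 fell, 9 of them by at least 2-fold, with a median of 0.758. With library totals alone 15 were up and 1 down. LMOD1, which nucleates actin filaments, was at 192 ± 9.5 CPM in TGFb and 39.8 ± 4.08 CPM in FB, and KCNMB1, the beta subunit of a potassium channel of smooth muscle, was at 93.1 ± 4.36 CPM in TGFb and 22.9 ± 1.85 CPM in FB. TPM2, a tropomyosin that winds along actin, had 2804 ± 129.6 CPM in TGFb and 759 ± 36.5 CPM in FB (1.89 ± 0.051), and SYNPO2, a filament bundling protein, was at 3.08 ± 0.466 CPM in TGFb and 0.451 ± 0.201 CPM in FB. CNN1, the smooth muscle calponin, changed by 1.76 ± 0.045 and TPM1 by 1.17 ± 0.053. At the lower end FLNA, the actin crosslinker filamin A, changed by 0.56 ± 0.07 and MYH11, the smooth muscle myosin heavy chain, by 0.27 ± 0.049, or -0.11 with library totals alone.

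Genes that serum response factor, MRTF and YAP are known to drive, listed together with regulators such as MRTFA, MRTFB and TEAD4, moved both ways. Of 28 tested (30 listed, 15 up and 7 down with library totals), 21 rose and 5 fell, and 6 and 1 did so by at least 2-fold. ANKRD1, a YAP target and ankyrin repeat protein of stretched muscle, had 1665, 1718, 1636, 1325 and 1574 CPM in TGFb, against 195, 237, 201, 215 and 210.2 CPM in FB. The libraries of TGFb all lay several-fold above those of FB, a change of 2.90 ± 0.067. FOS, an AP-1 subunit induced within minutes of a stimulus, was at 396 ± 37.3 CPM in TGFb and 67.7 ± 16.9 CPM in FB (2.55 ± 0.11), and FOSL1, another member of the FOS family, went the other way, 6.67 ± 1.1 CPM in TGFb and 17.8 ± 2.02 CPM in FB (-1.42 ± 0.1). The coactivator MRTFA itself rose by 1.13 ± 0.046, and YAP1 and TEAD1, the coactivator of the Hippo pathway and its DNA-binding partner, by 0.47 ± 0.048 and 0.78 ± 0.066. The receptor kinase AXL, a YAP target in cancer cells, fell (-0.44 ± 0.051).

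**Figure D2:**
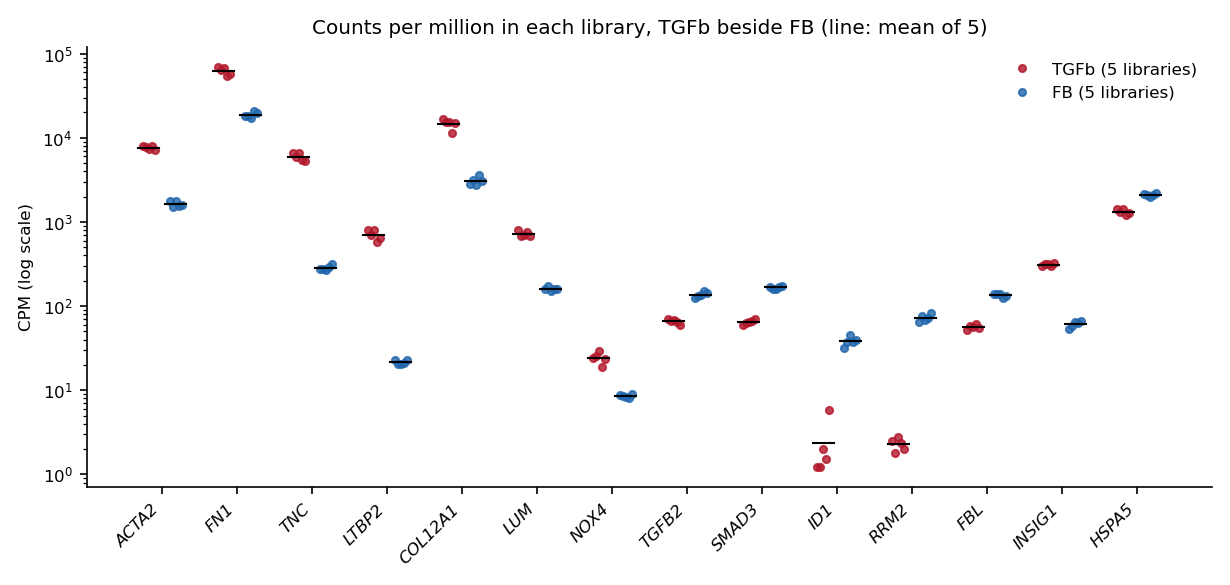
CPM on a log scale in each of the 5 TGFb libraries (red, left) and the 5 FB libraries (blue, right) for 14 genes, with lines at the means. No gene shown has overlapping groups; for ID1 the library TGFb 5 stands above the other TGFb libraries.

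Within the TGF-beta pathway the ligands fell while most genes that store and free them rose. TGFB2 had 69.6, 65.8, 69.1, 65.6 and 59 CPM in TGFb, against 124, 132, 135, 151 and 144 CPM in FB. No TGFb library reached the lowest FB library, a change of -1.06 ± 0.056. TGFB1 was at 27.3 ± 1.94 CPM in TGFb and 39.4 ± 3.2 CPM in FB (-0.52 ± 0.064) and TGFB3 at 34.9 ± 2.84 CPM in TGFb and 52.8 ± 4.73 CPM in FB (-0.60 ± 0.065), again without overlap. Of the 15 tested genes of ligands and latency (17 listed, 8 up and 6 down with library totals), 9 rose and 3 fell, the 3 being the ligands, and the median was 0.56. LTBP2, a member of the latent TGF-beta binding family that binds fibrillin rather than the latent ligand, had 804, 695, 797, 586 and 647 CPM in TGFb, against 22.9, 20.3, 20.7, 21.3 and 23 CPM in FB. The TGFb libraries stood between 586 and 804 CPM, all far above FB. LTBP1 rose by 0.97 ± 0.07, LTBP3 by 1.15 ± 0.064 and LTBP4 by 0.56 ± 0.073, which hold the latent ligand in the matrix. THBS1, thrombospondin 1, which can free the ligand, was at 30067 ± 2767 CPM in TGFb and 9114 ± 774 CPM in FB (1.72 ± 0.073). FBN1, the fibrillin to which LTBPs attach, and EMILIN1, an elastic fibre protein that restrains processing of the TGF-beta precursor, rose by 1.04 ± 0.067 and 1.01 ± 0.069. ITGAV, the integrin chain that pulls the ligand free, rose by 0.83 ± 0.056, and FURIN, which cleaves the precursor, by 0.35 ± 0.055, or -0.03 with library totals alone.

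Receptor genes, with the regulator PMEPA1 counted among them, rose in 12 of 14 tested members (17 listed, 6 up and 1 down with library totals, 8 and 1 in the fit of all 25 libraries) and fell in 1, with a median of 0.564. Only 2 of them, PMEPA1 included, rose by 2-fold or more. TGFBR1 was at 26.2 ± 2.03 CPM in TGFb and 18.8 ± 1.66 CPM in FB (0.48 ± 0.07). TGFBR2 had 768, 749, 725, 749.9 and 743 CPM in TGFb, against 577, 582, 561, 590.1 and 597 CPM in FB. The groups were apart but close, a change of 0.36 ± 0.042 that came to -0.01 with library totals alone. TGFBR3, the coreceptor betaglycan, rose by 0.68 ± 0.075, and ACVR1 and BMPR2, a type I and a type II receptor of BMPs, by 0.91 ± 0.045 and 0.88 ± 0.082. ACVRL1, a type I receptor known from endothelium, fell (-0.91 ± 0.11). PMEPA1, a TGF-beta target that sequesters SMADs, had 16.4 ± 2.12 CPM in TGFb and 8.07 ± 1.02 CPM in FB (1.02 ± 0.097).

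Among the SMADs and their regulators 11 of 19 tested members fell and 6 rose (20 listed, 1 up and 15 down with library totals, 1 and 4 in the fit of all 25 libraries), with a median of -0.239. SMAD3, a transducer of the TGF-beta signal, had 59.6, 63, 64.3, 66.1 and 70.5 CPM in TGFb, against 167, 162, 161, 169 and 176 CPM in FB. The highest TGFb library, at 70.5 CPM, lay below the lowest FB library, at 161 CPM (-1.37 ± 0.049). SMAD2 was barely lower (-0.12 ± 0.053, edgeR BH-adjusted p = 0.046), and the call was lost when any of 8 libraries (FB 1, FB 2, FB 3, FB 4, TGFb 1, TGFb 3, TGFb 4 or TGFb 5) was left out. The common partner SMAD4 did not pass the test (-0.04 ± 0.047, adjusted p = 0.46). The inhibitory SMADs, which both arms of the pathway induce as feedback, were lower in TGFb. SMAD6 was at 6.29 ± 0.908 CPM in TGFb and 16.9 ± 1.54 CPM in FB without overlap (-1.43 ± 0.095). SMAD7 was at 17.4 ± 1.4 CPM in TGFb and 21 ± 1.81 CPM in FB with groups that overlapped (-0.27 ± 0.073). SMAD9, a transducer of BMP signals, fell by 1.15 and SMAD1 by 0.34 on the log2 scale. SKIL, the corepressor SnoN and a direct TGF-beta target, rose (0.79 ± 0.073), whereas the corepressor TGIF1 fell (-0.56 ± 0.068).

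**Figure D3:**
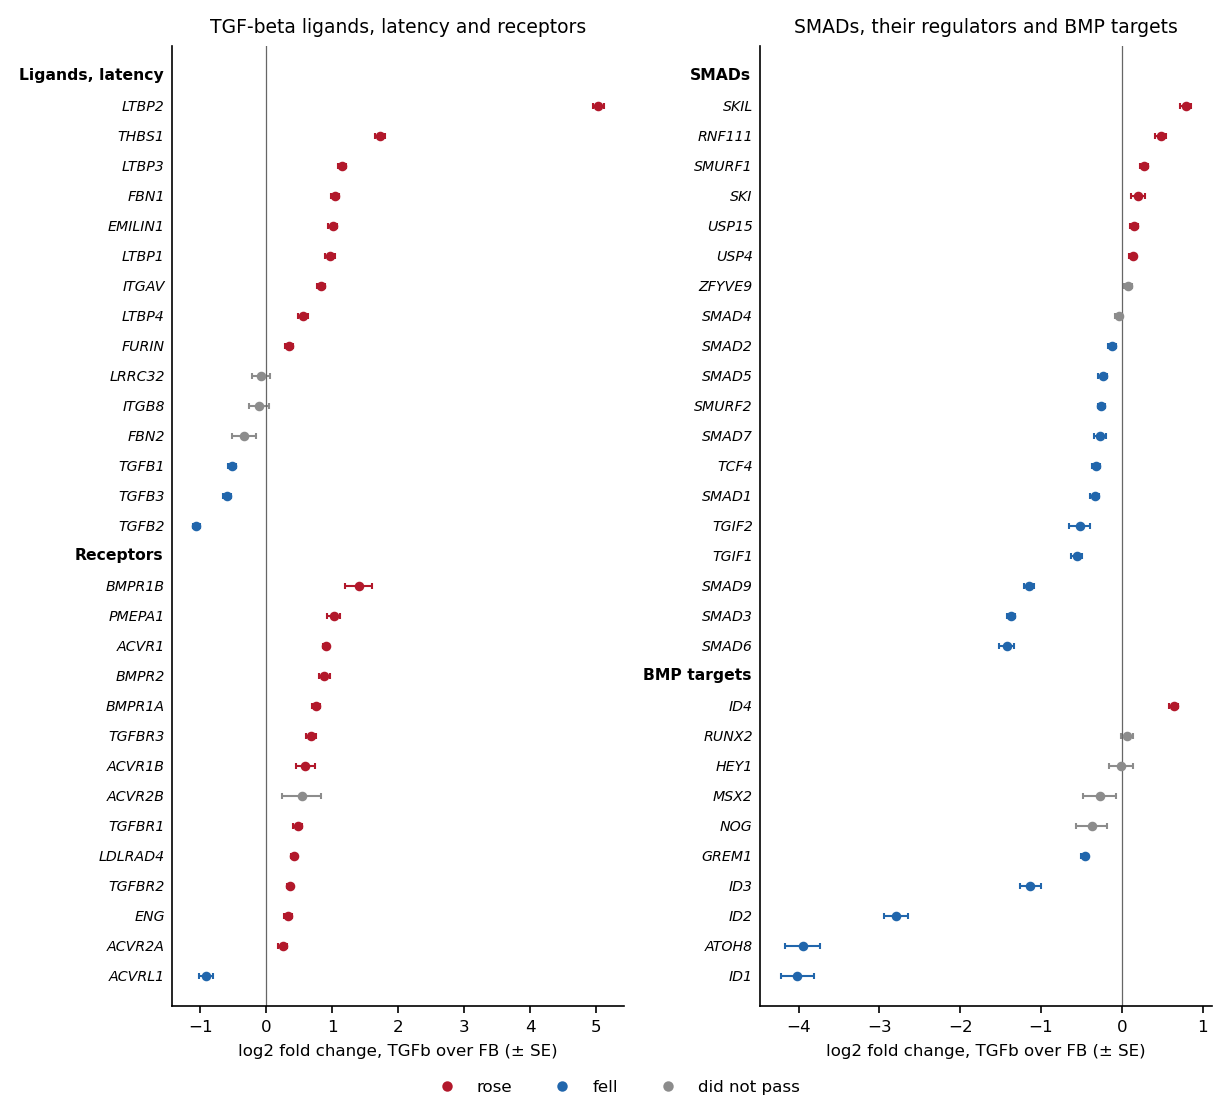
Log2 fold changes of TGFb over FB with SE (bars) for every tested gene of the TGF-beta ligands, latency and receptors (left) and of the SMADs, their regulators and BMP targets (right); red rose, blue fell, grey did not pass. The 3 ligands sit below 0, the LTBP genes above 0, and ID1, ATOH8 and ID2 farthest to the left.

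Genes known as early targets of TGF-beta rose in 15 of 22 tested members and fell in 4 (26 listed, 13 up and 8 down with library totals), 9 of the rises being at least 2-fold, with a median of 0.768. CCN2, connective tissue growth factor, had 7989, 7147, 7665, 6865 and 6496 CPM in TGFb, against 4204, 4198, 4157, 4248 and 4727 CPM in FB. The groups did not overlap (0.75 ± 0.06, edgeR BH-adjusted p = 6.49e-11). ELN, tropoelastin, was at 688 ± 84.3 CPM in TGFb and 135 ± 14 CPM in FB (2.34 ± 0.076), NOX4, an NADPH oxidase that makes hydrogen peroxide, at 24.2 ± 3.63 CPM in TGFb and 8.55 ± 0.316 CPM in FB (1.51 ± 0.089), and IGFBP5, a carrier of insulin-like growth factors, at 22.4 ± 2.57 CPM in TGFb and 6.45 ± 0.978 CPM in FB (1.79 ± 0.097). EDN1, the precursor of the vasoconstrictor endothelin 1, rose by 1.55 ± 0.14.

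Targets of the BMP arm were mostly lower. Of 13 tested BMP and SMAD1/5 targets (16 listed, 1 up and 12 down with library totals), 8 fell, 6 of them by at least 2-fold, and 1 rose, with a median of -0.461. ID1, an inhibitor of differentiation and the classic BMP target, had 1.23, 1.24, 2.01, 1.51 and 5.88 CPM in TGFb, against 32.1, 37.7, 45.4, 38 and 39.4 CPM in FB. All TGFb libraries lay below all FB libraries, and the library TGFb 5 stood above the other 4 of its group; the change was -4.01 ± 0.21 (edgeR BH-adjusted p = 1.58e-14). ID2 was at 1.39 ± 0.474 CPM in TGFb and 9.76 ± 0.755 CPM in FB (-2.79 ± 0.14) and ID3 at 42.5 ± 14.1 CPM in TGFb and 93 ± 10.9 CPM in FB (-1.13 ± 0.13), while ID4 went up (0.64 ± 0.056). ATOH8, a BMP-induced transcription factor, was at 0.321 ± 0.188 CPM in TGFb and 4.84 ± 0.575 CPM in FB (-3.95 ± 0.22).

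Ligands and antagonists of the activin and BMP families were mostly higher, with 11 of 16 tested members up and 2 down (25 listed, 10 up and 5 down with library totals) and a median of 0.695. INHBA, the subunit of activin A, had 249, 237, 255, 212 and 224 CPM in TGFb, against 77.2, 77, 73.8, 80.8 and 82 CPM in FB. The groups were well apart (1.59 ± 0.052). BMP4 was at 5.36 ± 1.49 CPM in TGFb and 2.12 ± 0.523 CPM in FB (1.35 ± 0.18). Of the secreted BMP antagonists, CHRD (chordin) and CHRDL1 rose by 1.72 ± 0.1 and 1.72 ± 0.061, and the modulator BMPER by 2.41 ± 0.23, whereas GREM1, gremlin 1, fell (-0.46 ± 0.046).

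Collagen chains were sorted by kind. Of the fibrillar collagens 5 of 7 tested chains rose and 2 fell (11 listed), against 3 higher and 3 lower with library totals alone. COL1A1, the main chain of the stromal fibril, had 58587, 54372, 53073, 46747 and 47008 CPM in TGFb, against 38948, 30874, 41165, 34554 and 39522 CPM in FB. With TMM scaling the lowest TGFb library lay above the highest FB library (0.49 ± 0.081, edgeR BH-adjusted p = 8.53e-06). With library totals alone the COL1A1 levels of the groups overlapped. COL1A1 did not pass with library totals alone, nor in the fit of all 25 libraries. COL1A2, its partner, changed by 0.27 ± 0.06 with TMM scaling and by -0.10 with library totals alone. COL5A1 and COL5A2, the chains of type V collagen that set fibril width in the cornea, were at 7903 ± 637 CPM in TGFb and 4084 ± 315 CPM in FB (0.95 ± 0.064) and at 10384 ± 604 CPM in TGFb and 6080 ± 266 CPM in FB (0.77 ± 0.056). Their relative COL5A3 was lower, at 151 ± 9.37 CPM in TGFb and 356 ± 11.4 CPM in FB (-1.24 ± 0.047). COL3A1, the scar collagen of skin, was slightly lower in TGFb with overlapping groups, 203 ± 24.2 CPM in TGFb and 236 ± 10.0 CPM in FB (-0.21 ± 0.061). COL11A1, a cartilage fibril chain that is also made by activated fibroblasts, had 12.5, 11.8, 11.8, 7.63 and 10.8 CPM in TGFb, against 0.0507, 0.171, 0.0879, 0.109 and 0.0468 CPM in FB. It was close to absent in FB, where all 5 libraries together held 11 counts, against 1047 counts in TGFb.

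Of the other collagens 10 of 21 tested chains rose and 7 fell (32 listed), with a median of 0.173, while with library totals alone 7 were up and 12 down. COL12A1, which coats collagen fibrils, had 16745, 15531, 15320, 11330 and 14973 CPM in TGFb, against 2829, 3144, 2727, 3644 and 3095 CPM in FB. The TGFb libraries all exceeded FB by more than the spread of either group (2.26 ± 0.089). COL8A1, a chain of the membrane under the corneal endothelium and of vessel walls, had 3.33, 3.5, 4.11, 3.03 and 2.28 CPM in TGFb, against 0.101, 0.128, 0, 0.254 and 0.328 CPM in FB. It was the largest rise of this list (4.25 ± 0.3). The type IV collagens of basement membranes split by chain: COL4A3, COL4A4 and COL4A5 rose (1.45 ± 0.07, 1.34 ± 0.054 and 1.45 ± 0.066), and COL4A1 and COL4A2, the chains of most basement membranes, fell (-0.52 ± 0.052 and -0.36 ± 0.051). COL4A4 had 321, 309, 280.0, 267 and 298 CPM in TGFb, against 119, 113, 115, 128 and 109 CPM in FB, so its groups lay apart. COL4A1 had 89.6, 82.3, 81.9, 73 and 80.8 CPM in TGFb, against 119, 108, 115, 117 and 124 CPM in FB, apart in the other direction. COL4A6 rose as well (0.95 ± 0.083). COL14A1, a fibril-coating collagen of the same class as COL12A1, was at 24.5 ± 1.53 CPM in TGFb and 62.8 ± 4.37 CPM in FB (-1.36 ± 0.06). COL6A1, a chain of the beaded filaments, did not pass (-0.08 ± 0.061, adjusted p = 0.237).

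**Figure D4:**
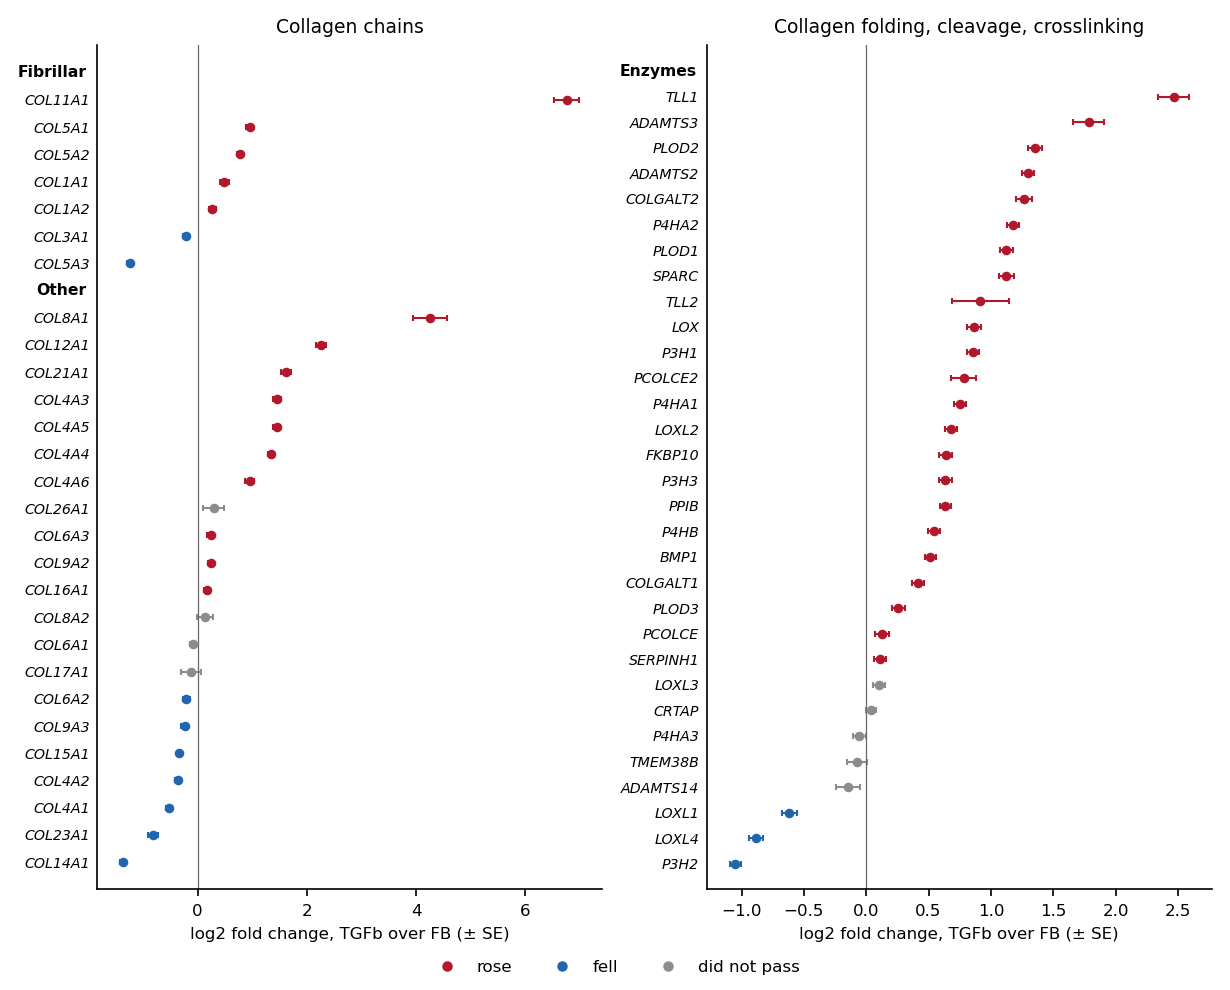
Log2 fold changes of TGFb over FB with SE (bars) for each tested collagen chain (left) and for genes of collagen folding, cleavage and crosslinking (right), with TMM scaling; red rose, blue fell, grey did not pass. COL4A3 to COL4A6 lie right of 0 and COL4A1 and COL4A2 left of it, and on the right LOXL1, LOXL4 and P3H2 alone fell.

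Enzymes that modify and cut collagen were mostly higher: 23 of 31 tested rose and 3 fell (33 listed, 19 up and 11 down with library totals), 8 of the rises by at least 2-fold, with a median of 0.636. The proteases that trim procollagen ends were among them, with ADAMTS2 at 595 ± 37.3 CPM in TGFb and 242 ± 10.7 CPM in FB (1.30 ± 0.05), ADAMTS3 at 10.9 ± 1.93 CPM in TGFb and 3.15 ± 0.375 CPM in FB (1.78 ± 0.12) and TLL1, a relative of BMP1, at 8.02 ± 0.714 CPM in TGFb and 1.45 ± 0.196 CPM in FB (2.46 ± 0.12). PLOD2, the lysyl hydroxylase that prepares the crosslinks of scar collagen, had 492, 444, 504, 410.0 and 438 CPM in TGFb, against 166, 184, 176, 194 and 175 CPM in FB. No TGFb library came near FB (1.35 ± 0.056). COLGALT2, which adds galactose to hydroxylysine, rose by 1.27 ± 0.061. Among the lysyl oxidases, which form crosslinks, LOX rose (0.86 ± 0.057) and LOXL1 and LOXL4 fell (-0.62 ± 0.062 and -0.88 ± 0.06). P3H2, a prolyl hydroxylase that works mainly on type IV collagen, was at 115 ± 5.7 CPM in TGFb and 238 ± 4.31 CPM in FB (-1.05 ± 0.044).

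The secretory machinery that carries procollagen changed by less than 2-fold. With TMM scaling 26 of 46 tested members rose and 7 fell (53 listed), and with library totals alone 3 were up and 37 down. SEC24A, a coat protein of the vesicles that leave the endoplasmic reticulum (ER), was at 59.2 ± 3.55 CPM in TGFb and 38.4 ± 3.22 CPM in FB (0.63 ± 0.059). CREB3L1, a transcription factor of secretory genes, was at 228 ± 9.49 CPM in TGFb and 403 ± 25.1 CPM in FB (-0.82 ± 0.049). Of the ER chaperones 15 of 24 tested rose and 5 fell (24 listed), with library totals alone 9 higher and 12 lower. The disulfide isomerases PDIA4 and PDIA6 rose by 0.89 ± 0.051 and 0.82 ± 0.048 and HSP90B1, the ER form of heat shock protein 90, by 0.87 ± 0.051. HSPA5, the master chaperone of the unfolded protein response, had 1439, 1313, 1435, 1195 and 1270 CPM in TGFb, against 2152, 2082, 1992, 2109 and 2219 CPM in FB. Each FB library lay above every TGFb library (-0.67 ± 0.054). The response factors XBP1 and DDIT3 and the degradation adaptor HERPUD1 fell as well (-0.36 ± 0.049, -2.10 ± 0.13 and -0.53 ± 0.045).

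The matricellular and adhesive glycoproteins had the highest median of the lists with at least 6 tested genes, 1.04, and 34 of 43 tested members rose and 7 fell (49 listed, 30 up and 9 down with library totals), 24 and 2 by at least 2-fold. FN1, fibronectin, had 69442, 63384, 66826, 54903 and 57753 CPM in TGFb, against 18013, 18084, 16980, 21074 and 19892 CPM in FB. Every TGFb library exceeded every FB library (1.73 ± 0.077, edgeR BH-adjusted p = 7.84e-16). TNC, tenascin C, which appears in healing cornea, was at 5959 ± 629 CPM in TGFb and 286 ± 17.4 CPM in FB (4.38 ± 0.073). SPP1, osteopontin, had 3470, 3029, 3411, 3038 and 2935 CPM in TGFb, against 191, 206, 178, 186 and 174 CPM in FB. The TGFb libraries all lay far above the FB libraries (4.08 ± 0.065). MFAP4, a protein of elastic microfibrils, was at 75.7 ± 6.27 CPM in TGFb and 3.35 ± 0.621 CPM in FB (4.50 ± 0.09), and COMP, which binds collagen fibrils, at 16.4 ± 1.27 CPM in TGFb and 0.164 ± 0.103 CPM in FB (6.59 ± 0.17). SPARC, a collagen-binding protein, rose by 1.12 ± 0.059, and POSTN, periostin, by 2.36 ± 0.057. SMOC1, a SPARC relative that antagonises BMPs, had 4.16 ± 0.527 CPM in TGFb and 20.3 ± 1.51 CPM in FB (-2.28 ± 0.091), and IGFBP7 had 295 ± 16.2 CPM in TGFb and 455 ± 29 CPM in FB (-0.62 ± 0.05).

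Members of the list of keratocyte and stromal proteoglycan genes, which also holds S100A4 of motile fibroblasts, were not uniformly lower. Of 19 tested (30 listed, 23 in the files, 10 up and 6 down with library totals), 13 rose and 3 fell, with a median of 0.664. LUM, lumican, the keratan sulfate proteoglycan that spaces corneal fibrils, had 811, 685, 705, 758 and 677 CPM in TGFb, against 161, 173, 150.1, 159 and 160.1 CPM in FB. The groups stood several-fold apart (2.18 ± 0.055, edgeR BH-adjusted p = 1.1e-20). DCN, decorin, which binds fibrils and TGF-beta, was at 494 ± 27.9 CPM in TGFb and 312 ± 12 CPM in FB (0.66 ± 0.047), and the related OMD, PODN and PRELP rose by 1.76 ± 0.084, 1.42 ± 0.1 and 1.08 ± 0.058. The falls were those of S100A4, a calcium-binding protein of motile fibroblasts, at 55.9 ± 2.45 CPM in TGFb and 183 ± 7.37 CPM in FB (-1.71 ± 0.047), of the crystallin ALDH3A1, at 0.25 ± 0.125 CPM in TGFb and 0.629 ± 0.138 CPM in FB (-1.33 ± 0.33), and of TKT, transketolase (-0.13 ± 0.046), which did not pass without the library TGFb 2 or TGFb 5.

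Genes that build or trim glycosaminoglycans rose in 18 of 31 cases tested and fell in 6 (47 listed), and with library totals alone 13 were up and 14 down. SULF1 and SULF2, which remove sulfate from heparan sulfate outside the cell, rose by 1.66 ± 0.056 and 1.04 ± 0.055. EXT2 and EXTL3, which build the heparan sulfate chain, rose by 1.00 ± 0.042 and 1.37 ± 0.06, and CHPF, which builds chondroitin sulfate, by 1.09 ± 0.079. The hyaluronan receptor CD44 and the hyaluronan-degrading CEMIP fell (-0.40 ± 0.046 and -0.56 ± 0.058). Of the metalloproteinases and inhibitors 30 of 37 tested rose and 4 fell (54 listed, 23 up and 10 down with library totals), with a median of 0.719. They included ADAMTS1, ADAMTS4 and ADAMTS5, proteases that cut aggrecan and versican (1.57 ± 0.074, 1.89 ± 0.11 and 2.76 ± 0.14), and ADAMTSL2, a fibrillin-binding protein without protease activity that is linked to TGF-beta storage, at 22.4 ± 3.24 CPM in TGFb and 0.802 ± 0.302 CPM in FB (4.80 ± 0.15). TIMP1, an inhibitor of matrix metalloproteinases, was slightly lower with overlapping groups (-0.21 ± 0.055), and ADAM12, often described as a TGF-beta target, was lower without overlap (-0.52 ± 0.067).

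Among the receptors for matrix 17 of 25 tested integrin and laminin genes rose and 4 fell (34 listed, 12 up and 8 down with library totals). ITGA1, the alpha chain of a collagen receptor, had 1216, 1102, 1078, 1002 and 1060 CPM in TGFb, against 404, 392, 378, 455 and 414 CPM in FB. Its groups did not overlap (1.42 ± 0.056). ITGB1, the beta chain that pairs with it, rose by 0.71 ± 0.052, HSPG2 (perlecan) by 1.34 ± 0.083 and DAG1 (dystroglycan, a laminin receptor) by 1.29 ± 0.053. ITGA8 and ITGA4, which bind fibronectin among other ligands, were lower, at 34.7 ± 3.54 CPM in TGFb and 99.5 ± 6.59 CPM in FB (-1.52 ± 0.063) and 10.2 ± 1.37 CPM in TGFb and 22 ± 1.19 CPM in FB (-1.11 ± 0.081).

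The genes of DNA replication and mitosis were lower in TGFb in nearly all members. Of 53 tested replication genes (61 listed, 0 up and 53 down with library totals), 0 rose and 50 fell, 34 by at least 2-fold, and of 72 tested mitosis genes (81 listed, 0 up and 72 down with library totals), 0 rose and 72 fell, 63 by at least 2-fold. The medians were -1.43 and -2.44. RRM2, the ribonucleotide reductase subunit made in S phase, had 2.51, 1.8, 2.82, 2.33 and 2.01 CPM in TGFb, against 65.5, 76.7, 67.9, 71.3 and 82.2 CPM in FB. The highest TGFb library, at 2.82 CPM, lay far below the lowest FB library, at 65.5 CPM (-4.98 ± 0.095, edgeR BH-adjusted p = 6.45e-23). MCM5, part of the replicative helicase, was at 3.78 ± 0.446 CPM in TGFb and 56.1 ± 3.94 CPM in FB (-3.89 ± 0.08). CCNA2, the cyclin of S and G2 phase, was at 1.57 ± 0.364 CPM in TGFb and 19.9 ± 2.59 CPM in FB (-3.67 ± 0.13), BUB1, a kinase of the spindle checkpoint, at 2.56 ± 0.555 CPM in TGFb and 32.5 ± 2.57 CPM in FB (-3.67 ± 0.1), and CDC20, the activator of the anaphase complex, at 1.72 ± 0.524 CPM in TGFb and 24.6 ± 1.94 CPM in FB (-3.85 ± 0.12). The replication members that did not pass were ORC2 of the origin complex, RFC1 of the clamp loader and the chromatin remodeler HELLS (-0.0018 ± 0.056, -0.07 ± 0.048 and -0.02 ± 0.073). The labels call the FB cells quiescent, and in these libraries FB held the higher levels of these genes.

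Genes that repair DNA in S phase fell in 26 of 33 tested members and rose in 0 (34 listed, 0 up and 32 down with library totals), with a median of -1.11, and EXO1, an exonuclease of mismatch repair, was at 1.6 ± 0.299 CPM in TGFb and 14.4 ± 1.1 CPM in FB (-3.17 ± 0.11). Among cyclins, inhibitors and the E2F and RB families 20 of 27 fell and 4 rose (34 listed, 0 up and 22 down with library totals). CCND1, cyclin D1, which carries growth signals to the cell cycle, had 14.3, 15.5, 16.8, 13.6 and 15.1 CPM in TGFb, against 48, 37.2, 50.5, 41.7 and 41.8 CPM in FB. All TGFb libraries were below all FB libraries (-1.54 ± 0.078). CDK2 and the activator E2F1 were at 2.81 ± 0.237 CPM in TGFb and 8.35 ± 1.02 CPM in FB (-1.57 ± 0.11) and 6.59 ± 0.396 CPM in TGFb and 17.2 ± 0.892 CPM in FB (-1.38 ± 0.077), and MYBL2, an E2F target, at 4.22 ± 0.463 CPM in TGFb and 53.8 ± 6.57 CPM in FB (-3.68 ± 0.094). The pocket protein RBL2, which holds cells in quiescence, was higher (0.40 ± 0.053), as was E2F3 (0.39 ± 0.063). CDKN1A, the inhibitor p21 and an early TGF-beta target in epithelium, did not pass, at 59.8 ± 3.95 CPM in TGFb and 53.5 ± 9.13 CPM in FB (0.16 ± 0.081, adjusted p = 0.0876), but passed at 0.25 without FB 3 and had the opposite sign, -0.21, with library totals alone.

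The p53 target genes went both ways, with 9 of 21 up and 6 down with TMM scaling (26 listed), and 6 up and 12 down with library totals alone. BTG2, an antiproliferative gene, was at 46.3 ± 6.4 CPM in TGFb and 11.4 ± 1.16 CPM in FB (2.01 ± 0.086), and RRM2B, the p53-induced ribonucleotide reductase subunit of resting cells, rose by 1.00 ± 0.052 where RRM2 fell. DDB2, a sensor of ultraviolet damage, and SESN2, a stress sensor, fell (-1.92 ± 0.09 and -1.61 ± 0.1).

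**Figure D5:**
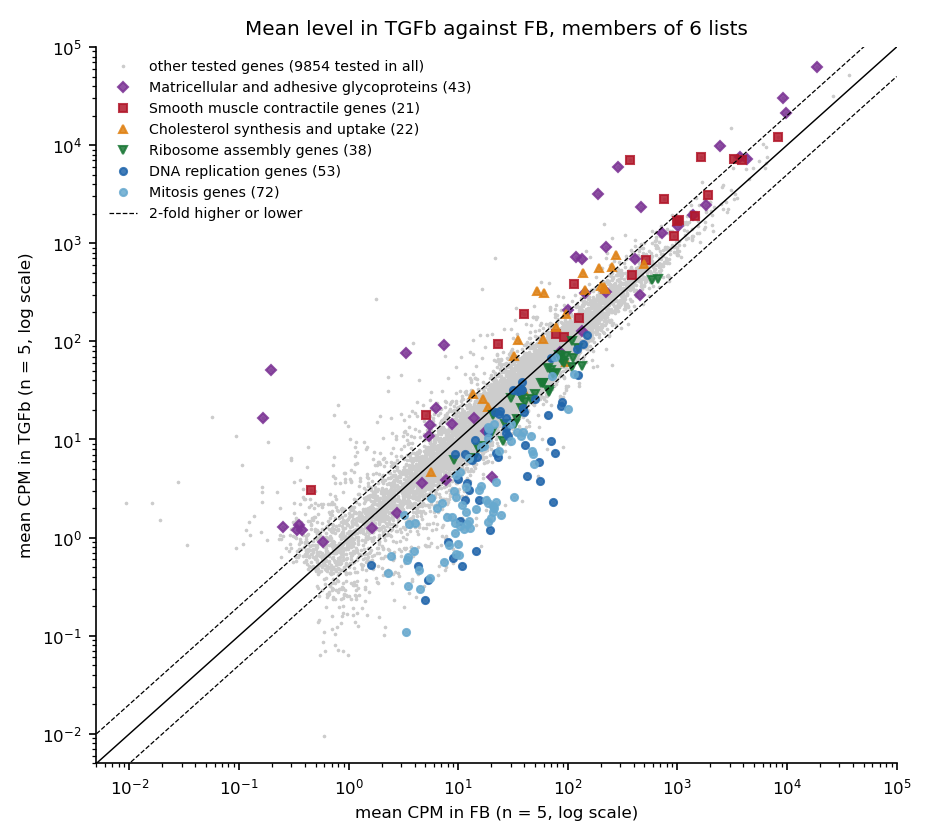
Mean CPM in TGFb against mean CPM in FB, both on log scales, for all 9854 tested genes (grey) and the members of 6 lists (coloured); the solid line marks equal levels and the dashed lines a 2-fold difference. Replication and mitosis genes (blue) lie below the line across the range of levels, ribosome assembly genes (green) lie closer below it, and most contractile, cholesterol and matricellular genes lie above it.

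Genes for making ribosomes were lower. All 38 of 38 tested ribosome assembly genes fell (47 listed, 0 up and 38 down with library totals), 7 of them by at least 2-fold, with a median of -0.68. FBL, fibrillarin, which methylates ribosomal RNA, had 51.4, 58, 56.5, 60.9 and 54.7 CPM in TGFb, against 141, 139, 138, 126 and 132 CPM in FB. The highest TGFb library stood well below the lowest FB library (-1.26 ± 0.05). POLR1E, a subunit of RNA polymerase I, was at 9.7 ± 0.715 CPM in TGFb and 25.8 ± 2.32 CPM in FB (-1.41 ± 0.077), and RRP12, which exports the subunits, at 30.2 ± 1.83 CPM in TGFb and 67 ± 4.43 CPM in FB (-1.15 ± 0.057). Of the ribosomal proteins 34 of 77 were in the files, and 31 of 34 fell and 0 rose by small steps, with a median of -0.256 and none at 2-fold; in the fit of all 25 libraries 0 passed. Ribosomal protein genes have many pseudogene copies, so their counts are less certain. RPL36 was the lowest (-0.55 ± 0.054), and RPLP0, often used as a reference gene, did not pass (-0.08 ± 0.058, adjusted p = 0.226).

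Most genes of sterol synthesis rose, and with TMM scaling most of fatty acid synthesis. Of 22 tested cholesterol genes (28 listed, 17 up and 4 down with library totals), 19 rose and 3 fell, 10 of the rises by at least 2-fold, with a median of 0.926. INSIG1, the sterol sensor that is itself a target of the sterol factor SREBP, had 299, 318, 318, 300.4 and 326 CPM in TGFb, against 53.6, 57.8, 63.9, 62.3 and 67.2 CPM in FB. The groups lay far apart, with little spread in either (2.35 ± 0.055, edgeR BH-adjusted p = 2.77e-21). HMGCS1, an early enzyme of the pathway, was at 498 ± 49.7 CPM in TGFb and 139 ± 15.7 CPM in FB (1.84 ± 0.072). Of the 29 tested genes of fatty acid synthesis and desaturation (35 listed, 13 up and 10 down with library totals), 20 rose and 4 fell. SCD, the desaturase that makes oleate, had 906, 818, 797, 815 and 808 CPM in TGFb, against 123, 144, 137, 166 and 155 CPM in FB. Every TGFb library was several-fold above the highest FB library (2.51 ± 0.064). ELOVL5, an elongase, was at 177 ± 9.61 CPM in TGFb and 52.7 ± 3.98 CPM in FB (1.75 ± 0.054), and ACSL5, an activator of fatty acids, went down, at 1.03 ± 0.149 CPM in TGFb and 7.76 ± 0.6 CPM in FB (-2.91 ± 0.13).

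Genes of glucose use rose in part, whereas those of the respiratory chain were slightly lower. For glucose uptake, glycolysis and lactate export 12 of 20 tested rose and 2 fell (29 listed), and with library totals alone 8 were up and 8 down. SLC2A1, the glucose transporter GLUT1, was at 262 ± 24.2 CPM in TGFb and 173 ± 9.94 CPM in FB (0.60 ± 0.056), HK2, a hexokinase, at 69.3 ± 3.03 CPM in TGFb and 43 ± 2.17 CPM in FB (0.69 ± 0.051), and PFKFB3, which makes an activator of glycolysis, at 144 ± 8.41 CPM in TGFb and 69.9 ± 3.97 CPM in FB (1.04 ± 0.051). LDHA, the lactate dehydrogenase of muscle, did not pass (-0.10 ± 0.052, adjusted p = 0.074), except without FB 5 (-0.13) or TGFb 4 (-0.12). For pyruvate entry and the TCA cycle 9 of 29 rose and 12 fell (35 listed, 1 up and 25 down with library totals), none by 2-fold. PDK1, a kinase that closes pyruvate dehydrogenase, rose (0.69 ± 0.045), and ME3, a mitochondrial malic enzyme, fell (-0.72 ± 0.059).

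The mitochondrial pyruvate carrier, the target of a drug used elsewhere in the series, is made of MPC1 and MPC2. MPC1 had 26.9, 24.4, 26.8, 25.9 and 24.6 CPM in TGFb, against 27.9, 29.1, 29.1, 26.7 and 26.5 CPM in FB. These ranges overlapped and the gene did not pass (-0.11 ± 0.057, adjusted p = 0.0753). MPC2 had 40.6, 46.4, 44.1, 43.8 and 43.5 CPM in TGFb, against 54.1, 56.5, 55.6, 52.2 and 53.8 CPM in FB. Its groups did not overlap (-0.32 ± 0.05, edgeR BH-adjusted p = 4.21e-06), but MPC2 did not pass in the fit of all 25 libraries. PPARG, the receptor on which the series' other drugs act, had 0 counts in all TGFb libraries together and 3 in all FB libraries and was not tested.

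Of 46 tested respiratory chain and ATP synthase genes (75 listed, 46 in the files, 0 up and 45 down with library totals), 28 fell and 4 rose, none by 2-fold, with a median of -0.197; in the fit of all 25 libraries 0 passed. NDUFV1, which holds the entry site of complex I, was at 74.4 ± 4.62 CPM in TGFb and 101 ± 9.47 CPM in FB (-0.45 ± 0.059), and UQCRC1 of complex III at 151 ± 6.49 CPM in TGFb and 204 ± 9.67 CPM in FB (-0.43 ± 0.046). For mitochondrial upkeep and dynamics 14 of 30 fell and 9 rose (39 listed, 1 up and 25 down with library totals). Those that fell included the matrix chaperones HSPA9, HSPD1 and HSPE1 (-0.71 ± 0.041, -0.53 ± 0.042 and -0.70 ± 0.051) and the import pore TOMM40 (-0.72 ± 0.053). HSPA9 had 361, 368, 373, 382 and 368 CPM in TGFb, against 609, 617, 588, 608 and 597 CPM in FB. The FB libraries were all higher, with little spread in either group. Among the SLC25 carriers 15 of 32 fell and 8 rose (43 listed, 4 up and 24 down with library totals). UCP2, an uncoupling protein of the inner membrane, had 0.409, 0.412, 1.29, 1.07 and 0.901 CPM in TGFb, against 14.7, 16.2, 18.3, 15.1 and 16.4 CPM in FB. The highest TGFb library was at 1.29 CPM and the lowest FB library at 14.7 CPM (-4.30 ± 0.16). SLC25A4, the nucleotide exchanger of heart and muscle, had 212 ± 6.11 CPM in TGFb and 97 ± 4.27 CPM in FB (1.13 ± 0.044). For fatty acid oxidation 12 of 26 fell and 6 rose (31 listed, 3 up and 21 down with library totals), against 4 lower and 5 higher in the fit of all 25 libraries; CPT1A, which admits fatty acids to mitochondria, was at 65.3 ± 2.06 CPM in TGFb and 101 ± 4.61 CPM in FB (-0.63 ± 0.046).

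Amino acid synthesis genes were mostly lower. Of 31 tested genes of serine, glycine, proline and glutamine metabolism (40 listed, 1 up and 26 down with library totals), 18 fell and 7 rose. MTHFD2, the mitochondrial folate enzyme of growing cells, had 121, 135, 143, 149 and 136 CPM in TGFb, against 315, 309, 303, 307 and 292 CPM in FB. All FB libraries lay above all TGFb libraries (-1.16 ± 0.05). PSPH, the last enzyme of serine synthesis, was at 65.7 ± 3.38 CPM in TGFb and 119.8 ± 2.3 CPM in FB (-0.87 ± 0.046), and SLC3A2, the partner chain of amino acid transporters, at 33.3 ± 3.87 CPM in TGFb and 95.5 ± 6.38 CPM in FB (-1.52 ± 0.065). In the ATF4 list, that of the integrated stress response, 10 of 18 fell and 6 rose (24 listed, 5 up and 12 down with library totals). ATF4 itself changed by -0.79 ± 0.049. TRIB3, a pseudokinase that ATF4 induces, had 10.6, 9.27, 9.6, 6.49 and 5.72 CPM in TGFb, against 97.4, 87.7, 96, 83.7 and 90.5 CPM in FB. The FB libraries were all several-fold above TGFb. CHAC1, which degrades glutathione, was at 9.07 ± 3.47 CPM in TGFb and 42.5 ± 2.39 CPM in FB (-2.21 ± 0.14). DDIT4, an inhibitor of mTORC1 that hypoxia also induces, went the other way, at 223 ± 39.9 CPM in TGFb and 69 ± 3.43 CPM in FB (1.70 ± 0.084), as did STC2, at 236 ± 20.8 CPM in TGFb and 93.2 ± 2.84 CPM in FB (1.34 ± 0.054).

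Oxidase and antioxidant genes were mixed, with 13 of 32 higher and 10 lower with TMM scaling (48 listed) and 6 higher and 21 lower with library totals alone. GCLC and GCLM, the subunits of the enzyme that limits glutathione synthesis, fell (-0.91 ± 0.061 and -0.91 ± 0.05), and NFE2L2, the factor known to induce both, did not pass (-0.02 ± 0.043, adjusted p = 0.662). PRDX4, the peroxiredoxin of the ER, rose (0.95 ± 0.053). TXNIP, the inhibitor of thioredoxin that glucose induces, had 66.5, 56, 58.1, 64.1 and 41.6 CPM in TGFb, against 277, 253, 261, 248 and 232 CPM in FB. The groups lay far apart (-2.15 ± 0.082). Of the hypoxia-induced genes 22 of 28 rose and 3 fell (32 listed, 19 up and 7 down with library totals), with a median of 0.689; the list shares members with the glycolysis and collagen enzyme lists. CA9, a carbonic anhydrase, was at 22.7 ± 1.24 CPM in TGFb and 10.8 ± 1.32 CPM in FB (1.08 ± 0.078), and HIF1A, the factor of the response, rose by 0.86 ± 0.045 while its relative EPAS1 fell (-0.56 ± 0.048). CA12, another carbonic anhydrase of the list, fell by 2.54 on the log2 scale.

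Cytokine and chemokine genes rose in 17 of 30 tested members and fell in 9 (59 listed), while with library totals alone 8 were up and 13 down. LIF, a cytokine of the interleukin 6 family, was at 46.4 ± 9.78 CPM in TGFb and 13.6 ± 1.39 CPM in FB (1.77 ± 0.11), and CXCL8, the neutrophil attractant interleukin 8, at 17.9 ± 1.72 CPM in TGFb and 7.55 ± 1.04 CPM in FB (1.25 ± 0.092). ACKR4, a scavenger of chemokines, was at 0.844 ± 0.227 CPM in TGFb and 6.98 ± 0.471 CPM in FB (-3.02 ± 0.15). Of the genes of prostaglandin synthesis and receptors 19 of 27 were in the files and 10 were tested, of which 5 rose and 2 fell, or 5 and 5 with library totals alone. PTGS2, the inducible cyclooxygenase, had 104, 92.6, 94.3, 75.5 and 109.7 CPM in TGFb, against 4.62, 3.25, 3.25, 3.91 and 4.26 CPM in FB. Every TGFb library lay far above any FB library (4.63 ± 0.1). PTGS1 and PTGIS, the constitutive cyclooxygenase and prostacyclin synthase, rose by 0.75 ± 0.049 and 0.66 ± 0.042, and SLCO2A1, which takes prostaglandins up, fell (-0.90 ± 0.049). Interferon-induced genes fell in 15 of 25 and rose in 6 (43 listed, 2 up and 20 down with library totals), with a median of -0.292. IRF1, a transcription factor of the response, was at 6.96 ± 0.538 CPM in TGFb and 19.5 ± 1.37 CPM in FB (-1.48 ± 0.079), and IFI44 at 8.1 ± 0.547 CPM in TGFb and 3.71 ± 0.464 CPM in FB (1.12 ± 0.1). Of the complement genes 6 of 23 were tested, and 4 rose and 1 fell, or 3 and 2 with library totals alone.

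Among other signalling genes 24 of 36 tested Wnt pathway genes rose and 5 fell (63 listed, 14 up and 11 down with library totals), with a median of 0.338. WNT11, a ligand of the branch that does not act through beta-catenin, was at 10.8 ± 1 CPM in TGFb and 2.69 ± 0.449 CPM in FB (1.99 ± 0.11), and the Frizzled receptors FZD2 and FZD6 rose by 1.58 ± 0.1 and 1.26 ± 0.055. The 5 that fell were the transcription factors TCF7 (-2.43 ± 0.16) and TCF7L2 (-0.69 ± 0.051), which bind beta-catenin, the Wnt inhibitor APCDD1 (-1.65 ± 0.3), the ligand WNT7A (-0.33 ± 0.12) and the scaffold AXIN2 (-0.68 ± 0.23). WNT7A did not pass without the library FB 1 or TGFb 4. For WNT7A and AXIN2 the groups overlapped, AXIN2 lying near the lower limit of the tested levels, at 0.666 ± 0.229 CPM in TGFb and 1.06 ± 0.121 CPM in FB. Of the Notch and hedgehog genes 8 of 19 fell and 7 rose (37 listed, 4 up and 14 down with library totals), or 4 and 4 in the fit of all 25 libraries. The receptor NOTCH3 of mural cells rose (1.02 ± 0.068), and NOTCH1 and the ligand JAG1 fell (-0.64 ± 0.12 and -0.51 ± 0.067). The largest log2 fold change of this list, 6.03, belonged to a member not named here. HES1, a Notch target, had 54.6, 45.4, 51.2, 62.1 and 128 CPM in TGFb, against 25.8, 23.1, 26.7, 29.1 and 34.4 CPM in FB. All TGFb libraries were above FB, the library TGFb 5 highest (1.29 ± 0.19).

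Growth factor and receptor genes rose in 28 of 46 tested members and fell in 14 (67 listed, 20 up and 19 down with library totals). IGF1, insulin-like growth factor 1, had 12.9, 13.8, 12.1, 15.5 and 14.8 CPM in TGFb, against 0.862, 1.28, 0.879, 0.942 and 0.983 CPM in FB. The lowest TGFb library stood far above the highest FB library (3.79 ± 0.12). IGFBP4, a carrier that holds it back, was at 1120 ± 35.8 CPM in TGFb and 252 ± 16.8 CPM in FB (2.15 ± 0.051). HGF, a growth factor known to oppose TGF-beta in the cornea, was at 2.79 ± 0.362 CPM in TGFb and 9.77 ± 0.36 CPM in FB (-1.81 ± 0.1), and EDNRB, a receptor for endothelin, at 4.01 ± 0.552 CPM in TGFb and 12 ± 0.962 CPM in FB (-1.59 ± 0.1), while EDNRA, the other endothelin receptor, rose (0.82 ± 0.16). Transcription factors of mesenchyme fell in 20 of 44 and rose in 16 (62 listed, 11 up and 28 down with library totals), or 11 and 11 in the fit of all 25 libraries. NR4A1, an orphan nuclear receptor known to restrain TGF-beta signalling, had 30.7, 26.8, 37.4, 47.1 and 84.8 CPM in TGFb, against 2.03, 1.67, 2.33, 2.43 and 6.46 CPM in FB. The TGFb libraries were all higher, with a wide spread in both groups (3.94 ± 0.3). SNAI1, a repressor of epithelial genes, was at 24.5 ± 5.48 CPM in TGFb and 9.61 ± 0.807 CPM in FB (1.35 ± 0.11), SOX4 at 12.3 ± 1.73 CPM in TGFb and 3.28 ± 0.453 CPM in FB (1.90 ± 0.11), and KLF4, a factor that opposes the smooth muscle programme in vessels, at 359 ± 17.5 CPM in TGFb and 684 ± 29 CPM in FB (-0.93 ± 0.047). Of the clock genes 4 of 13 rose and 5 fell (20 listed, 2 up and 9 down with library totals), 5 and 5 with RLE factors; BHLHE40, a repressor that TGF-beta and hypoxia also induce, was at 560.3 ± 112 CPM in TGFb and 205 ± 17.1 CPM in FB (1.45 ± 0.088) and NR1D1 at 8.96 ± 1.55 CPM in TGFb and 16.8 ± 1.54 CPM in FB (-0.91 ± 0.097).

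Large changes outside these lists included GABRP. This gene, which encodes a subunit of the GABA receptor, had 253, 267, 344, 220.4 and 255 CPM in TGFb, against 1.67, 1.24, 2.06, 1.99 and 1.92 CPM in FB. The lowest TGFb library was at 220.4 CPM and the highest FB library at 2.06 CPM (7.23 ± 0.13). DPYS, an enzyme of pyrimidine breakdown, had 1612 counts in all TGFb libraries together and 7 in all FB libraries. SPINK5, a protease inhibitor of skin, was at 43.2 ± 4.85 CPM in TGFb and 2.27 ± 0.691 CPM in FB (4.25 ± 0.12), and KIF1A, a motor of axonal transport, at 17.9 ± 2.34 CPM in TGFb and 0.732 ± 0.172 CPM in FB (4.61 ± 0.14). CILP, which binds TGFb1 in cartilage, was the largest rise of the matricellular list, at 51.3 ± 4.86 CPM in TGFb and 0.197 ± 0.134 CPM in FB (8.02 ± 0.15). Among the falls, DNPH1, which clears damaged nucleotides, was at 2.16 ± 0.377 CPM in TGFb and 26.4 ± 1.45 CPM in FB (-3.61 ± 0.098). AMTN, an enamel protein, had 73 counts in all TGFb libraries together and 0 in all FB libraries, and was at least 28.9-fold higher in TGFb, counting 3 reads over the FB group as the floor. Of the 2 tested epithelial markers KRT7, a keratin of simple epithelium, was at 17.4 ± 1.67 CPM in TGFb and 1.93 ± 0.332 CPM in FB (3.17 ± 0.11), and EPCAM, the epithelial adhesion molecule, was at 4.35 ± 0.746 CPM in TGFb and 7.83 ± 0.804 CPM in FB (-0.85 ± 0.12).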

How the data were processed

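The deposited files hold raw counts per gene for 25 libraries, of which 10 were analysed here. Per the labels' protocols, 200 ng of total RNA entered a stranded mRNA library kit. Salmon 1.5.2, Subread 2.0.1 with featureCounts, STAR 2.7.9a and fastp 0.23.1 appear in the submitters' processing notes without roles; the genome build, annotation and strand setting are not given in the sources used here, so overlapping and antisense genes are uncertain. The files list 13949 genes, and 12370 had a count in the 10 libraries.

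Genes were kept by filterByExpr (minimum count 10, minimum total 15), counts were scaled by TMM, and TGFb was tested against FB with edgeR 4.0.16 (quasi-likelihood, R 4.3.3), Benjamini-Hochberg adjusted over 9854 genes. The SE is the size of the change divided by the root of the F statistic. The 2 groups were fitted alone, with a biological coefficient of variation of 0.061, against 0.213 in the fit of all 25 libraries. CPM are counts per 1 M of the TMM-scaled total. Among the 236 tested genes named, 226 passed, the highest adjusted p being 0.046 (SMAD2). On counts simulated for this comparison (9885 genes), all 100 of 100 genes given a 2-fold change were found and 99 of 100 given a 1.5-fold change, with 7 false calls among 9685 unchanged genes. The simulation drew the changed genes from well counted ones, in equal numbers up and down, and gave all genes the same spread. Recovery among genes with low counts or a wider spread was not tested. The rate of false calls where most genes change, as here (71.9% of 9854), was not tested either. No 2 libraries of a group were alike within counting noise. The 51 lists (1762 genes, 1460 in the files, 1240 tested) carry no test. Members and lists were chosen with earlier results of these data known.

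Named genes are up to 5 of each list with the largest rises and falls, up to 3 that did not pass, the 15 largest changes each way, the 6 highest genes of each group and a set list (ACTA2, COL1A1, COL1A2, COL3A1, FN1, CCN2, TGFB1, TGFBR1, TGFBR2, SMAD3, SMAD7, ID1, NOX4, MPC1, MPC2, PPARG, LUM, DCN, CCND1 and CDKN1A); some of them are left out, and some genes are not reported here. ALDH3A1, AMTN, APCDD1, ATF4, ATOH8, AXIN2, BMPER, CA12, CNN1, COL4A6, COL8A1, EDNRA, FURIN, HIF1A, LOX, LTBP1, LTBP4, MYH11, PDGFRA, POSTN, SMAD2, SYNPO2, TEAD1, THY1, TPM1 and YAP1 were named after their values were seen. The alternatives were 22: other scalings, filters, tools and fits (DESeq2 1.42.0, limma 3.58.1 voom, a replicate block, edgeR's glmTreat) and leaving out each library. Figures were drawn with matplotlib 3.10.9.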

Additional observations from a re-analysis of the deposited data

Results flagged for a closer look

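In 28 of 472 groups of 5 libraries (236 named genes, each in TGFb and in FB), 1 library lay far from the other 4 by Dixon's criterion (critical value 0.71), which chance gives in about 1 in 20 groups. Levels below are CPM of that library, with the range of the other 4 libraries of its group. In TGFb 1 the level was apart for EXTL3 69.1 (others 61.7 to 63.5), KRT7 14.5 (others 17.7 to 18.6) and SCD 906 (others 797 to 818). In TGFb 2 the level was apart for ORC2 34.9 (others 38.8 to 39.6). In TGFb 4 the level was apart for CA12 0.189 (others 0.424 to 0.515), COL4A2 53.8 (others 61.3 to 63.5) and HK2 63.9 (others 70.2 to 71). The same library was apart for HSPE1 52.1 (others 44.9 to 46), ME3 92.3 (others 72.6 to 75.9) and NOTCH1 6.68 (others 11.2 to 12.6). The same library was apart for SOX4 9.27 (others 12.5 to 13.6). In TGFb 5 the level was apart for BHLHE40 759 (others 500 to 522), HES1 128 (others 45.4 to 62.1) and ID1 5.88 (others 1.23 to 2.01). The same library was apart for ID3 66.9 (others 31.9 to 41). In FB 1 the level was apart for ELOVL5 45.6 (others 53.9 to 55) and KCNMB1 26.2 (others 21.7 to 22.6). In FB 2 the level was apart for IGF1 1.28 (others 0.862 to 0.983). In FB 3 the level was apart for BMP4 3.03 (others 1.78 to 2.05) and CA9 13.1 (others 9.89 to 10.4). In FB 4 the level was apart for EDN1 4.6 (others 3.3 to 3.64), HIF1A 682 (others 613 to 631) and ITGAV 176 (others 143 to 148). The same library was apart for SKIL 37.2 (others 27.5 to 29.5), SYNPO2 0.797 (others 0.304 to 0.439) and TEAD1 80.5 (others 59.4 to 65.5). In FB 5 the level was apart for CCN2 4727 (others 4157 to 4248) and NR4A1 6.46 (others 1.67 to 2.43).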

How the results depend on the processing

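Of 9854 genes, 7087 changed and 1189 did so by at least 2-fold. The fit of all 25 libraries gave 4089 changed genes (1931 higher, 2158 lower), and without replicate 5 of the group labelled UK, the library that stands apart, 7124. The test against a 1.5-fold change gave 1820, and the filter at 5 CPM in 5 libraries left 733 genes changed at least 2-fold. Every other alternative gave counts within 1.5 times those reported. Leaving out each library in turn gave 6849 to 7106 changed genes, 1205 to 1256 changed at least 2-fold, and a log2 fold change of 2.18 to 2.24 for ACTA2, which passed under all 22 alternatives. DESeq2 called 7159 genes and limma voom 7079.

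The scaling sets the balance of directions. Of the changed genes 48.3% were higher with TMM, 49.8% with RLE factors, 42.3% with upper quartile factors, 32.2% with totals that omit the 50 highest genes and 17.2% with library totals alone; the median change (log2) over all genes was -0.0192 with TMM, -0.179 without the 50 highest and -0.393 with library totals alone. Library totals alone turned the sign of TGFBR2 (-0.012), COL1A2 (-0.104), PDGFRA (-0.224), MYH11 (-0.108), FURIN (-0.028) and CDKN1A (-0.213), and totals without the 50 highest that of PDGFRA (-0.009). With library totals alone a further 5 of the 236 named genes no longer passed, COL1A1 among them. Another 9 that had not passed with TMM then did. The antioxidant list had 13 higher and 13 lower genes with upper quartile factors and 6 and 7 in the fit of all 25 libraries; other collagens had 7 and 8, p53 targets 6 and 8 and the secretory genes 9 and 18 without the 50 highest. Clock genes had 3 higher and 2 lower in the fit of all 25 libraries.

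Replicate numbers did not pair the libraries: deviations of same-numbered TGFb and FB libraries from their group means correlated at -0.114 to -0.0115. With the replicate number as a block 6903 genes changed, 1198 by at least 2-fold, and ACTA2 changed by 2.21; of the named genes SMAD2 lost its call.

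In the fit of all 25 libraries these named genes no longer passed, all with the same sign: ADAM12, AXL, CEMIP, COL1A1, COL1A2, COL3A1, COL4A1, COL4A2, EPAS1, FURIN, GREM1, HSPE1, ID4, IGFBP7, JAG1, MPC2, MYH11, NDUFV1, NOTCH1, PDGFRA, RBL2, RPL36, SMAD1, SMAD2, SMAD7, TEAD1, TGFBR1, TGFBR3, TIMP1, TKT, UQCRC1, WNT7A, XBP1 and YAP1. Without that library COL1A2, COL3A1 and PDGFRA still did not. Counts limit genes near the floor of 3 counts, 0.0317 CPM over the TGFb group and 0.0261 CPM over the FB group, and these floors cover counting error only. The SE of a change also takes in the variation among these libraries.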
